A study of Caenorhabditis elegans with 12 samples.

Results

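The UDP-glucuronosyltransferase genes of *C. elegans* (*ugt*) were taken as every feature of the expression table whose name begins with *ugt-* and a digit. This rule uses names and no measured value. It gave 65 genes of 46739 features, and all 65 are annotated as protein coding. RNA-seq had been performed on whole worms of strain PMD216 at day 1 of adulthood, raised on *cat-1* RNAi, *cat-2* RNAi or empty vector (EV) bacteria, with 4 libraries per group labelled as biological replicates. All 3 groups share 1 genotype. Its label gives *dat-1p::GFP* and a *dat-1p* transgene with *sid-1* (written sid1 there) and *rde-1* joined by SL2, in *rde-1(ne219)* V with *rrf-3(b26)* II. The study's strain list adds *fem-1(hc17)*, *eri-1(mg366)*, *lin-15B(n744)*, wpSi6, egIs1 and *unc-119(+)*. The *dat-1* promoter is active in dopaminergic neurons, so the transgene directs RNAi there, whereas the RNA came from pooled whole animals of this 1 crossed strain. The product of *cat-1* loads monoamines into vesicles and that of *cat-2* is the tyrosine hydroxylase of dopamine synthesis, and the comparison asks what transcripts differ when dopamine is not packaged or not made. In bulk RNA, fewer cells of a type and less RNA per cell cannot be told apart.

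UDP-glucuronosyltransferases are membrane enzymes of the endoplasmic reticulum that join a sugar from a UDP-sugar donor to small lipophilic molecules, which makes them more soluble and easier to export. In the worm the intestine is regarded as the main site of this second phase of detoxification, after oxidation by cytochrome P450 enzymes. UDP-glucose is a common donor. The family is much larger in nematodes than in mammals and many genes lie side by side in tandem. The substrates of most worm members are not known, so no role beyond this is given below for most of them.

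The libraries held 18765779 to 21493743 mapped reads. RPKM is the number of reads divided by gene length and by the library's mapped reads, so levels can be compared between genes, and whole reads could be recovered from it (100% of 20423 features above 0). The libraries labelled *cat-1* RNAi held 107 *cat-1* reads, against 22 in *cat-2* RNAi and 15 in EV, and those labelled *cat-2* RNAi held 156 *cat-2* reads, against 22 in *cat-1* RNAi and 19 in EV. The targeted genes were therefore higher in their own RNAi libraries, which does not check a knockdown, and the groups below are named by their labels. No list of tissue markers was at 0. The 9 intestinal markers summed to 2984 to 3342 RPKM in *cat-1* RNAi, 2885 to 3479 RPKM in *cat-2* RNAi and 2856 to 3254 RPKM in EV. The library *cat-2* RNAi replicate 2 had the lowest quality weight (0.331, others 0.629 to 1.54), and it lay at one end of the first principal component together with *cat-1* RNAi replicate 1.

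The *ugt* genes were a modestly expressed family carried by a few members. Together they took 0.0708% of mapped reads in *cat-1* RNAi, 0.0747% in *cat-2* RNAi and 0.0750% in EV. In each group 13 members averaged over 10 RPKM, and 21, 21 and 22 averaged under 1 RPKM in *cat-1* RNAi, *cat-2* RNAi and EV. The 10 highest members held 63.2%, 63.4% and 63.0% of the family's summed RPKM in those 3 groups. The 51 members that passed a filter on low values (at least 0.5 RPKM in at least 4 of 12 libraries) had a median level of 3.55 RPKM in *cat-1* RNAi, 3.92 RPKM in *cat-2* RNAi and 3.69 RPKM in EV, below the 12.7, 12.7 and 12.4 RPKM of all 13161 features that passed it.

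*ugt-22* stood highest. It averaged 46.8 ± 3.35 RPKM in *cat-1* RNAi, 53.3 ± 5.36 RPKM in *cat-2* RNAi and 54.4 ± 1.54 RPKM in EV (SD, n = 4 each, as for all means below). *ugt-44* followed with 41.2 ± 3.96, 37.8 ± 3.35 and 39.4 ± 3.02 RPKM, and *ugt-64* with 31.5 ± 1.02, 31.3 ± 1.68 and 31.9 ± 1.97 RPKM, in the same order of groups. Below these 3, *ugt-62* and *ugt-58* averaged 25.6 and 25.5 RPKM in EV, and *ugt-63* and *ugt-41* both averaged 22.1 RPKM. *ugt-12* (16.8 RPKM), *ugt-45* (15.6 RPKM) and *ugt-25* (13.2 RPKM) completed the 10 highest. Ordered by EV level, *ugt-22*, *ugt-44* and *ugt-64* each lay above the next member without overlap of their 4 libraries, and so did *ugt-58* above *ugt-63*. Of the 50 neighbouring pairs of tested members in this order only 6 did not overlap, so that most ranks further down are not separated by these libraries.

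**Figure D1:**
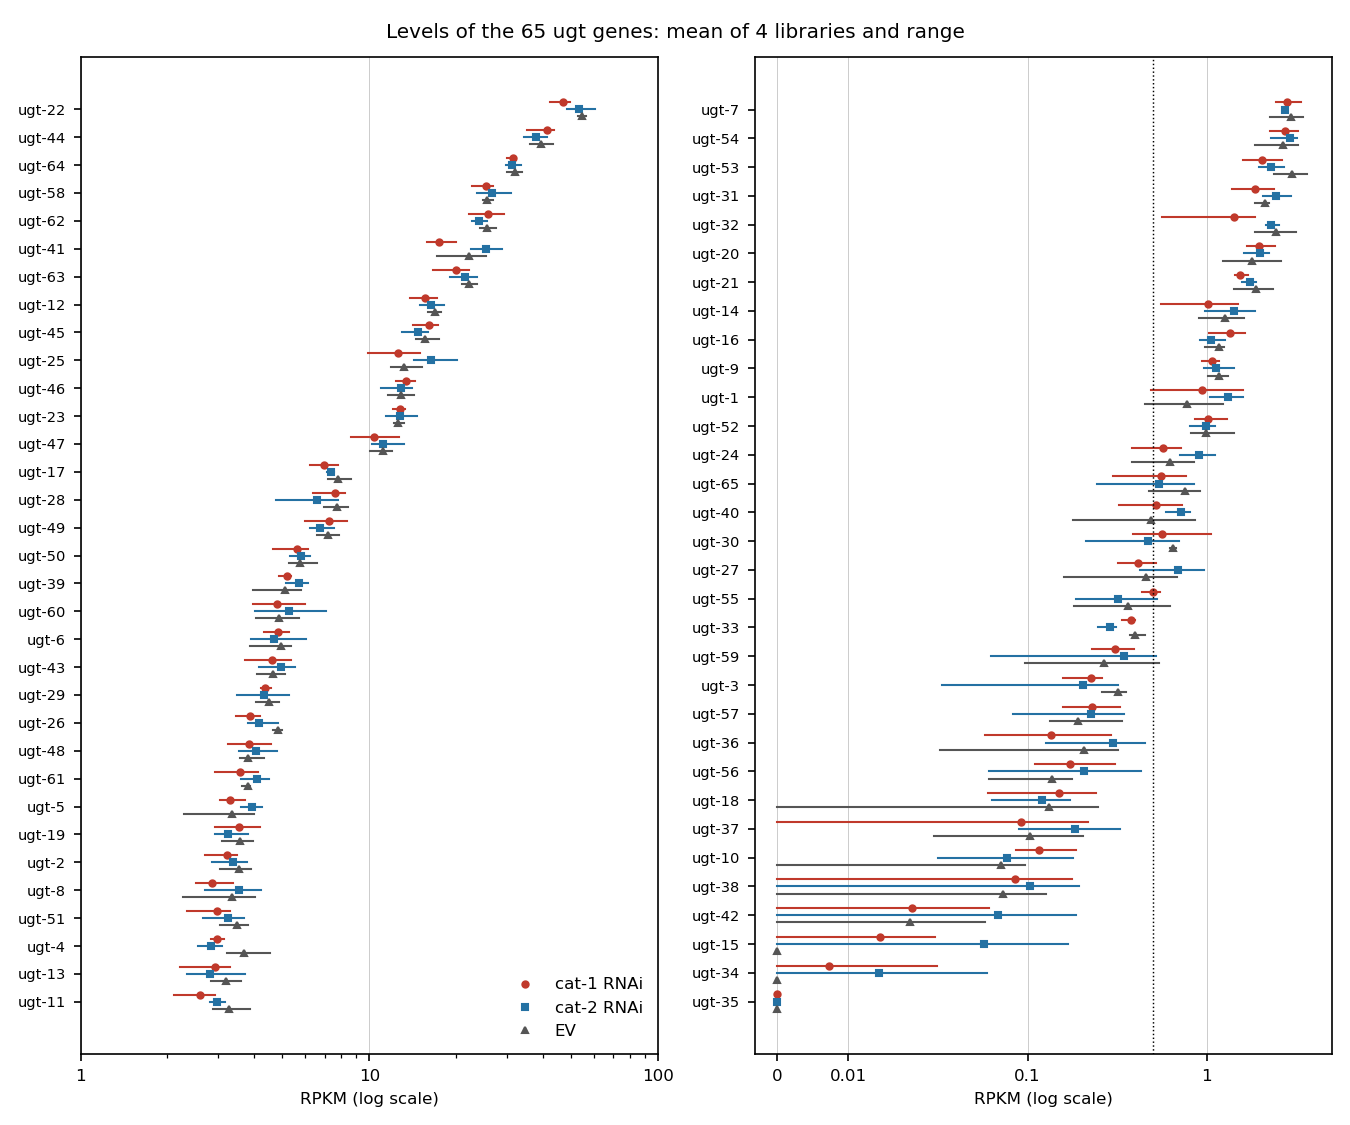
Level of each of the 65 *ugt* genes in RPKM on a log scale, ordered by the mean of 12 libraries. Symbols are group means of 4 libraries and lines run from the lowest to the highest library; values of 0 are drawn at the tick labelled 0 and the dotted line marks 0.5 RPKM. *ugt-22* leads at 46.8, 53.3 and 54.4 RPKM in *cat-1* RNAi, *cat-2* RNAi and EV, and *ugt-35* is at 0 in all 12 libraries.

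At the low end, *ugt-30*, *ugt-27* and *ugt-55* had the lowest means among tested members. *ugt-55* averaged 0.4997 RPKM in *cat-1* RNAi, 0.320 RPKM in *cat-2* RNAi and 0.361 RPKM in EV, from 180 reads in 12 libraries. The 14 members that did not pass the filter held 0.486% of the family's summed RPKM, and the highest of them, *ugt-33*, had 138 reads and a mean of 0.354 RPKM, against 0.394 RPKM for *ugt-55* just inside. *ugt-15* gave 10 reads, of which 6 were in *cat-2* RNAi replicate 2, and *ugt-34* gave 3 reads, in *cat-1* RNAi replicate 2 and *cat-2* RNAi replicate 2. *ugt-35* gave 0 reads, which allows up to 3 reads and so a level of up to 0.0232 RPKM in *cat-1* RNAi, 0.0237 RPKM in *cat-2* RNAi and 0.0238 RPKM in EV. These limits, like every interval on reads here, cover counting error only.

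Members lay on every chromosome, with 41 of the 65 on chromosome V and 12 on chromosome IV. With a gap of at most 10 kb between neighbours, 36 members formed 11 arrays and 29 stood alone. The median EV level was 2.49 RPKM in arrays and 3.48 RPKM for single genes, and 5 of 36 against 8 of 29 averaged over 10 RPKM. Levels differed widely within some arrays. In the array of 6 genes on chromosome V (7139475 to 7169281, build ce11), *ugt-41* averaged 17.4, 25.3 and 22.1 RPKM in *cat-1* RNAi, *cat-2* RNAi and EV and *ugt-39* 5.18, 5.71 and 5.12 RPKM, whereas *ugt-36* averaged 0.135, 0.2999 and 0.207 RPKM. In the array of 7 genes on the same chromosome (4887165 to 4911399), *ugt-12* led at 15.6, 16.3 and 16.8 RPKM, and *ugt-11* and *ugt-9*, which follow it, averaged 3.28 and 1.18 RPKM in EV. Reads that match several near-identical members may have been split among them, since the treatment of such reads is not given in the sources used here.

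**Figure D2:**
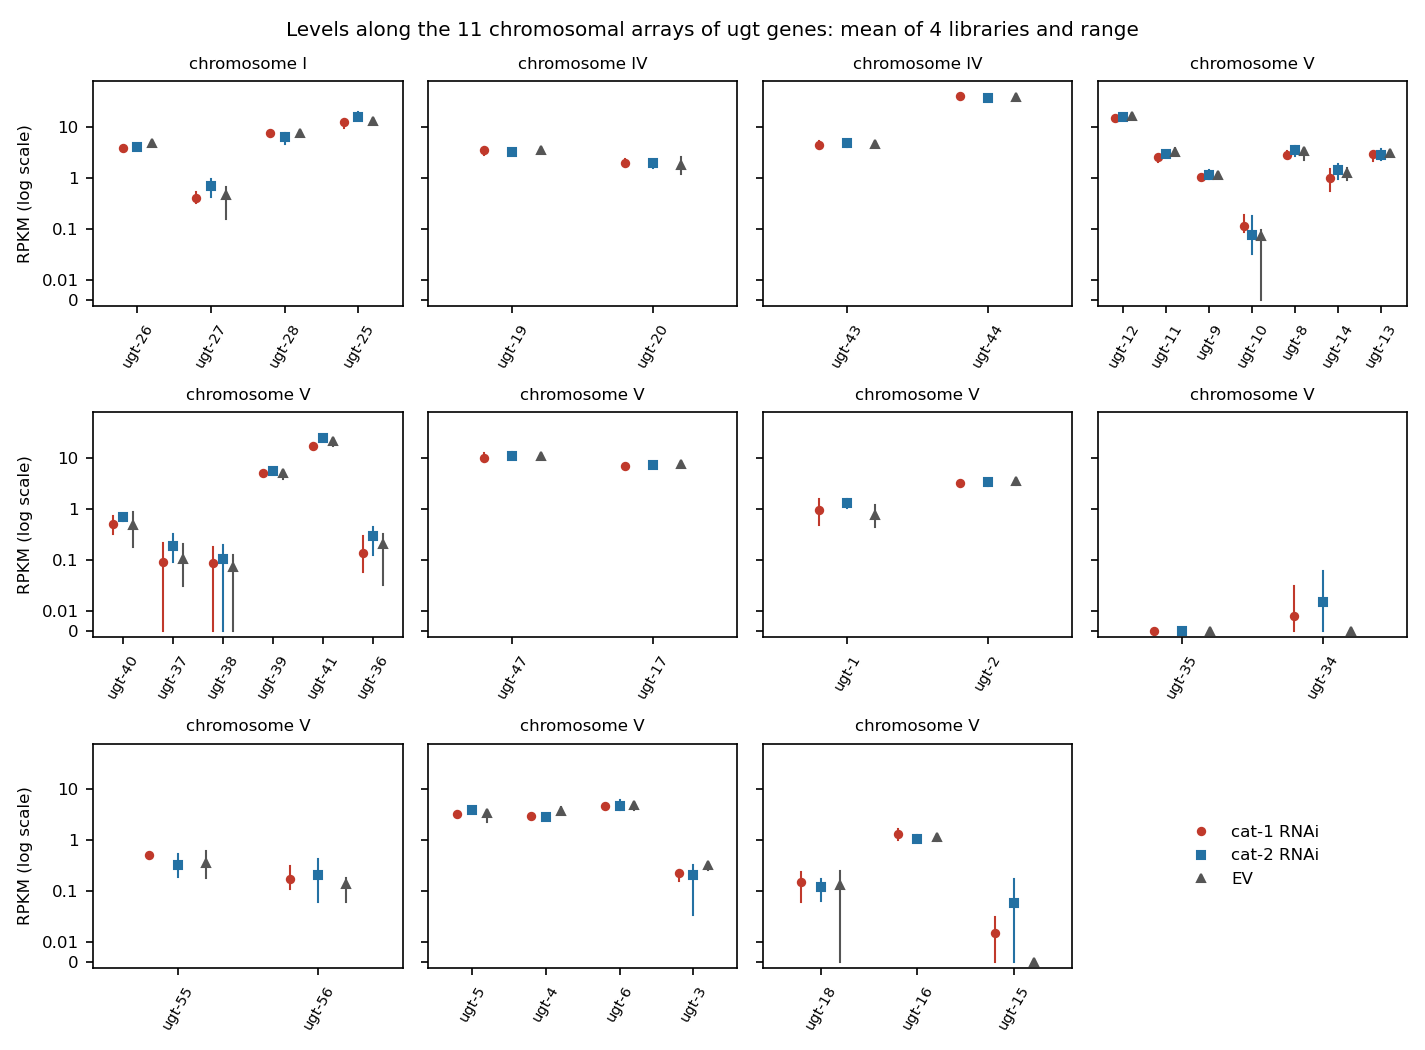
Level in RPKM (log scale, 0 drawn at the lowest tick) of the 36 *ugt* genes in 11 arrays, 1 panel per array with genes in chromosomal order. Symbols are group means of 4 libraries and lines the range. Some neighbours differ far more than groups, for example *ugt-41* at 22.1 RPKM and *ugt-36* at 0.207 RPKM in EV.

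In *cat-1* RNAi, 7 *ugt* genes were lower than in EV at an unadjusted p under 0.05 and none was higher, although no member passed after adjustment over all features. The 7 were *ugt-22*, *ugt-41*, *ugt-26*, *ugt-4*, *ugt-11*, *ugt-53* and *ugt-32*, with mean levels from 46.8 RPKM (*ugt-22*) down to 1.42 RPKM (*ugt-32*) in *cat-1* RNAi. They are 13.7% of the 51 tested members, against 2.49% of all tested features lower and 3.45% higher at the same threshold (5.94% in either direction). The differences were small, and none of the 51 reached 2-fold.

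*ugt-22*, on chromosome IV (13639260 to 13644567), measured 42.4, 46.0, 49.6 and 49.1 RPKM in the *cat-1* RNAi libraries, against 53.0, 53.4, 56.2 and 55.2 RPKM in the EV libraries. All 4 *cat-1* RNAi libraries lay below every EV library. The log2 fold change was −0.22 (SE 0.0675, 95% interval −0.36 to −0.07, unadjusted p = 0.00595, adjusted p = 0.808 from limma). It stayed under an unadjusted p of 0.05 in all 25 alternative settings tried. The gene overlaps *srz-29* on the other strand over 309 bp, and *srz-29* was at 0 in all 12 libraries.

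*ugt-32*, a single gene on chromosome V (3841794 to 3844007), measured 0.560, 1.62, 1.64 and 1.85 RPKM in *cat-1* RNAi, against 1.86, 2.20, 2.59 and 3.14 RPKM in EV. The groups did not overlap, although the highest *cat-1* RNAi library and the lowest EV library nearly met, and *cat-1* RNAi replicate 1 was far below the rest. Its log2 fold change of −0.67 (SE 0.226, unadjusted p = 0.0108, limma) was the most negative of the 51, and became −0.40 (unadjusted p = 0.0251, limma) without that replicate.

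*ugt-26*, on chromosome I (4721131 to 4723982), measured 3.98, 4.19, 3.85 and 3.45 RPKM in *cat-1* RNAi, against 4.97, 4.89, 4.63 and 4.79 RPKM in EV. *ugt-4*, on chromosome V (12793014 to 12795336), measured 2.82, 2.90, 3.01 and 3.15 RPKM in *cat-1* RNAi, against 3.68, 3.36, 4.52 and 3.22 RPKM in EV. For both genes every *cat-1* RNAi library lay below every EV library, and for *ugt-4* the EV libraries were spread more widely. The log2 fold changes were −0.29 (SE 0.104, unadjusted p = 0.0156, limma) for *ugt-26* and −0.26 (SE 0.119, unadjusted p = 0.0436, limma) for *ugt-4*. Without *cat-1* RNAi replicate 4 the unadjusted limma p of *ugt-26* was 0.0504. That of *ugt-4* was 0.0511 to 0.158 with 1 of replicates 1, 2 and 3 of *cat-1* RNAi, 1 of replicates 1 and 2 of *cat-2* RNAi or EV replicate 1 or 3 left out, and was highest without EV replicate 3, where its log2 fold change was −0.18. The 4 members below every EV library (*ugt-22*, *ugt-26*, *ugt-32* and *ugt-4*) are 7.84% of the 51, against 1.65% of all features, and 0 members lay above every EV library, against 1.92%.

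In the other 3 members the groups overlapped. *ugt-41*, on chromosome V (7161068 to 7163595), measured 19.96, 15.86, 17.80 and 15.98 RPKM in *cat-1* RNAi, against 21.95, 17.17, 25.45 and 23.71 RPKM in EV. EV replicate 2 alone lay among the *cat-1* RNAi libraries, at a log2 fold change of −0.33 (SE 0.119, unadjusted p = 0.0160, limma; 0.0596 without EV replicate 3). *ugt-53*, also on chromosome V (2849343 to 2852028), measured 1.59, 1.63, 2.63 and 2.31 RPKM in *cat-1* RNAi, against 3.62, 2.38, 3.26 and 2.69 RPKM in EV. Its log2 fold change was −0.46 (SE 0.168, unadjusted p = 0.0153, limma), with *cat-1* RNAi replicates 1 and 2 at the low end, and the p was 0.0514 without replicate 1, 0.0505 without replicate 2 and 0.0538 without EV replicate 1. *ugt-11*, on chromosome V (4892588 to 4895071), measured 2.10, 2.63, 2.69 and 2.92 RPKM in *cat-1* RNAi, against 3.26, 3.10, 2.88 and 3.87 RPKM in EV. Only the highest *cat-1* RNAi library reached the EV range, and its log2 fold change was −0.29 (SE 0.125, unadjusted p = 0.0350, limma). That p was 0.0522 to 0.117 with *cat-1* RNAi replicate 1 or 2 or EV replicate 1 or 4 left out. The adjusted p of the 7 genes was 0.808 to 0.819. The count of 7 became 4 when *cat-1* RNAi replicate 1 or replicate 2 was left out, and 4 without both libraries at the low end of the first principal component (a setting chosen after seeing the data). Voom on the recovered reads also gave 7 lower, 0 higher and 0 after adjustment.

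**Figure D3:**
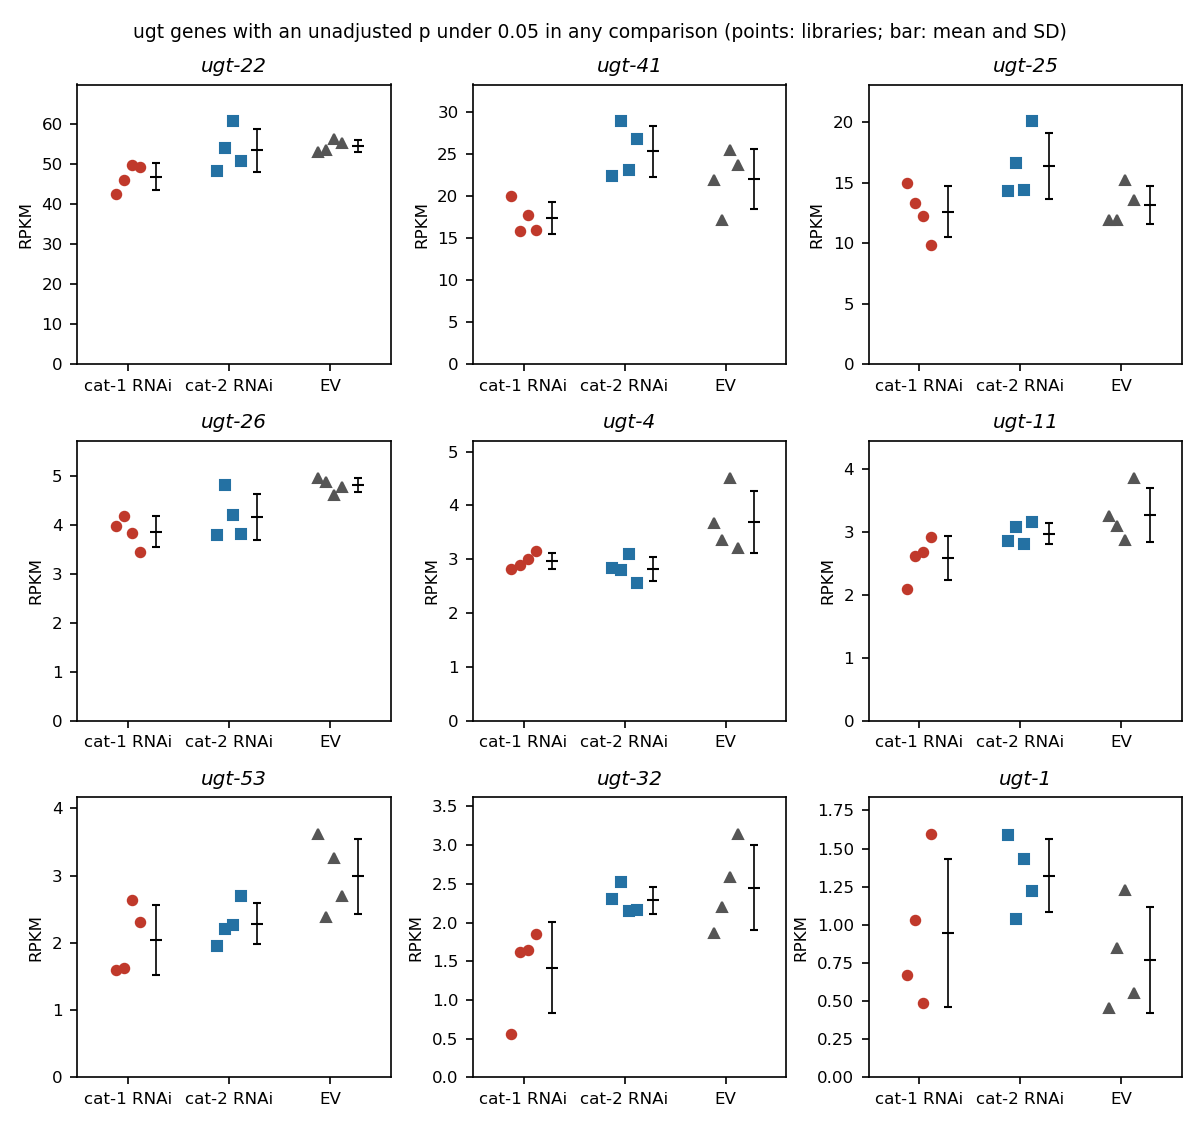
RPKM in each library of the 9 *ugt* genes with an unadjusted p under 0.05 in any comparison. Points are libraries and the bars beside them are the mean and SD of 4. All 4 *cat-1* RNAi libraries of *ugt-22* (42.4 to 49.6 RPKM) lie below the EV libraries (53.0 to 56.2 RPKM), and the *cat-1* RNAi and *cat-2* RNAi libraries of *ugt-41* (15.86 to 19.96 and 22.4 to 28.9 RPKM) do not overlap.

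Of the 51 tested members 36 (70.6%) had a log2 fold change below 0 in *cat-1* RNAi against EV, against 48.1% of all features. Without the 7 genes above, 29 of 44 (65.9%) did. The median over the 51 was −0.04, against 0.00 over all features. The SD of the members' median between single libraries of 1 group was 0.0402, which is not the error of a difference between group means. The median fold change was −0.0785 without EV replicate 1. That median was also below 0 with median-ratio scaling (−0.0426) and quantile normalization (−0.0763). The most positive value was 0.24 for *ugt-55* (unadjusted p = 0.252, limma). Among the abundant members, *ugt-62* (0.00), *ugt-64* (−0.02), *ugt-58* (−0.02) and *ugt-44* (0.06) had values close to 0, with 95% intervals of −0.14 to 0.10 for *ugt-64* and −0.11 to 0.23 for *ugt-44*. Tested neighbours of the 7 lower genes in their arrays did not pass the unadjusted threshold. In the array of *ugt-26*, the fold changes were −0.04 for *ugt-27* and −0.02 for *ugt-28*. Beside *ugt-4* they were −0.01 for *ugt-5* and −0.03 for *ugt-6*. Beside *ugt-11* they were −0.11 for *ugt-12* and −0.09 for *ugt-9*. Beside *ugt-41* it was 0.03 for *ugt-39*, while *ugt-36* on its other side was not tested. Over all tested members of those arrays the medians were −0.05, −0.03, −0.15 and 0.03, in the same order.

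The summed level of the family was 395.5, 412.8, 392.5 and 400.6 RPKM in the *cat-1* RNAi libraries, 402.8, 438.3, 419.1 and 426.3 RPKM in the *cat-2* RNAi libraries and 424.1, 417.0, 429.4 and 422.4 RPKM in the EV libraries. All 4 *cat-1* RNAi sums lay below every EV sum, and the *cat-2* RNAi sums overlapped both. The mean difference between *cat-1* RNAi and EV was −22.9 RPKM, or −5.41% of the EV sum, of which *ugt-22* made up 33.6% and *ugt-41* 20.4%. Without *ugt-22* the *cat-1* RNAi sums in RPKM as deposited (342.9 to 366.8 RPKM) overlapped the EV sums (363.7 to 373.2 RPKM). The means without that gene were still 353.6 RPKM in *cat-1* RNAi and 368.8 RPKM in EV. Whether these sums overlap under another scaling is not given here. These sums are a description with no test. Of the tissue markers, 0 of 9 intestinal genes were lower and 1 was higher in *cat-1* RNAi than in EV at an unadjusted p under 0.05 (limma), and 1 of 5 tested hypodermal genes was lower and 1 higher. No marker of the other 7 lists passed that threshold. The median log2 fold change was −0.02 for both the intestinal and the hypodermal list, −0.09 for the excretory canal and −0.17 for sperm. The hypodermal list summed to 582.7 to 671.1 RPKM in *cat-1* RNAi and 632.8 to 746.2 RPKM in EV. The part of these tissues in the family's values was not tested.

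**Figure D4:**
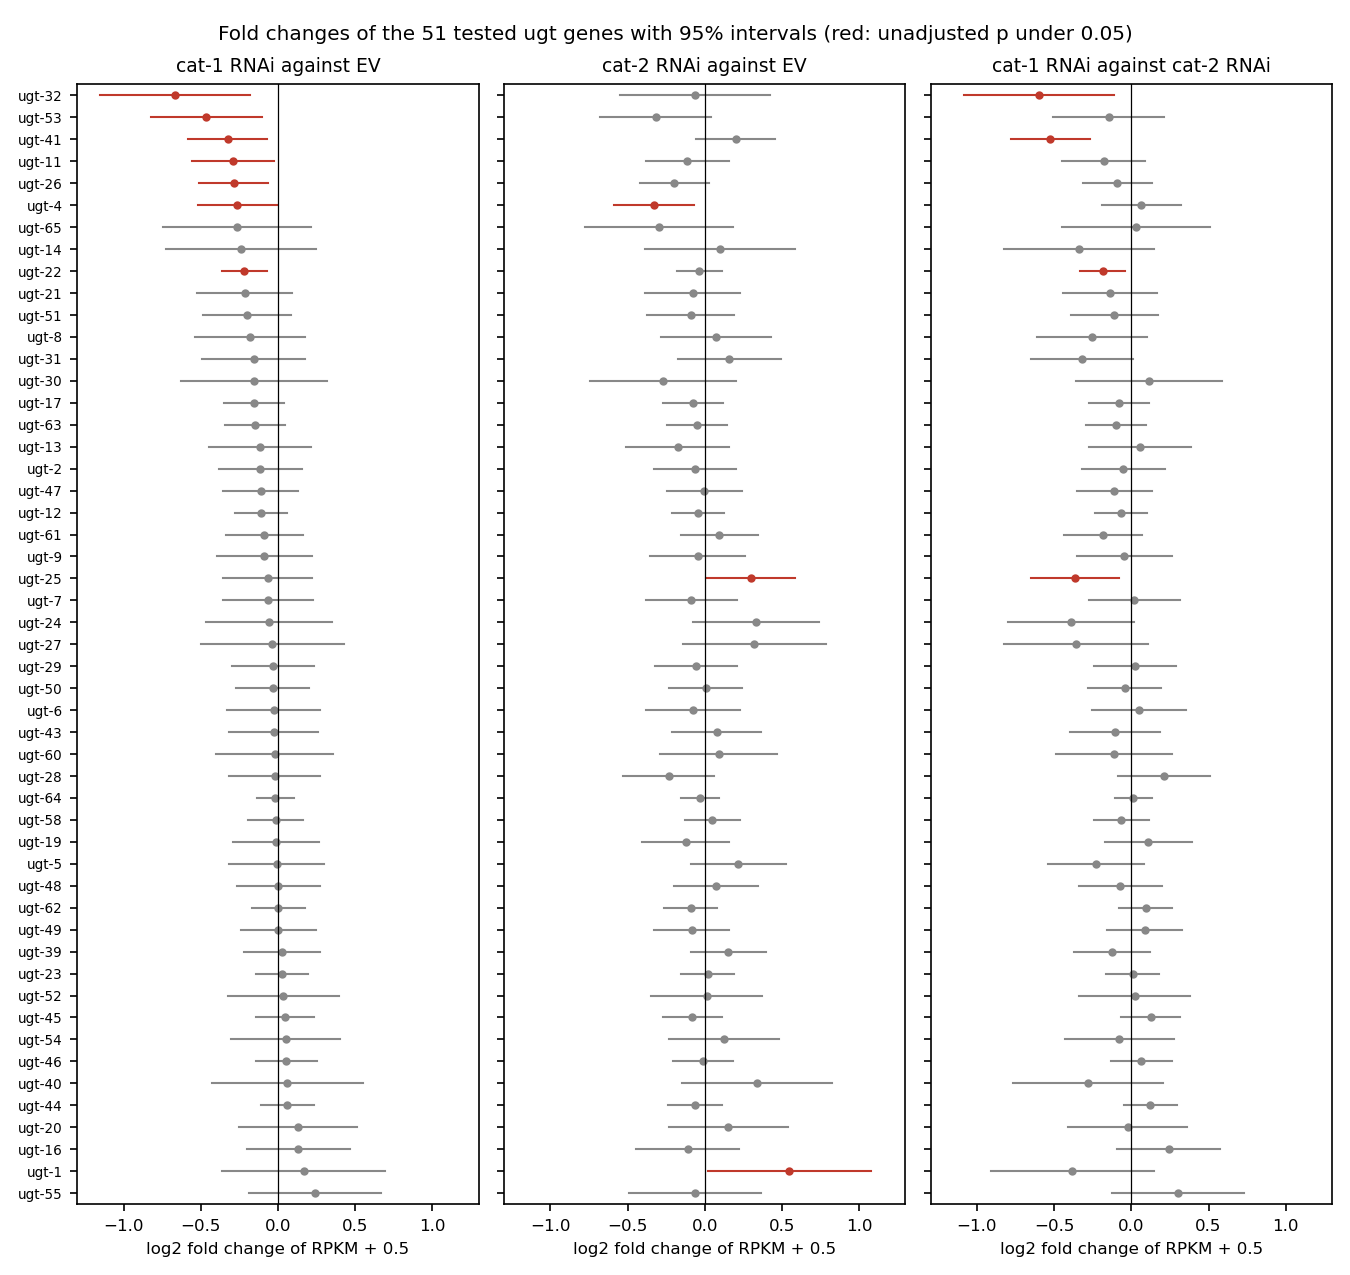
Log2 fold change of RPKM + 0.5 with 95% intervals for the 51 tested *ugt* genes in 3 comparisons, in the order of *cat-1* RNAi against EV, with intervals in red where the unadjusted p is under 0.05. In *cat-1* RNAi against EV 36 of 51 values lie below 0 and the 7 red ones all do, in *cat-2* RNAi against EV 1 red value lies below 0 and 2 above, and in *cat-1* RNAi against *cat-2* RNAi all 4 lie below.

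Between *cat-2* RNAi and EV, 0 of 51 *ugt* genes passed the limma test after adjustment. One member, *ugt-4*, was lower and 2, *ugt-25* and *ugt-1*, were higher at an unadjusted p under 0.05, in all 5.88% of the 51, against 3.95% lower, 4.89% higher and 8.84% in either direction over all features. After adjustment 0.0304% of all features passed. The median log2 fold change was −0.04, against 0.01 over all features, and 30 of 51 (58.8%) lay below 0, against 46% of all features. Of the tissue markers, 3 of 5 tested hypodermal genes were lower and 0 higher in *cat-2* RNAi than in EV at the same threshold, with sums over the whole list of 505.8 to 578.3 RPKM in *cat-2* RNAi and 632.8 to 746.2 RPKM in EV. Of 9 intestinal genes 3 were lower and 1 higher, and of 3 tested sperm genes 2 were lower and 0 higher. Of 2 tested dopaminergic and 5 germline genes 1 each was higher. The dopaminergic list includes *cat-2*, the target of this RNAi. It passed the filter only through its own RNAi libraries (0.728 to 1.90 RPKM, against 0.116 to 0.209 RPKM in EV). The dopaminergic count therefore does not measure those cells. The median log2 fold change was −0.31 for the hypodermal, 0.03 for the intestinal and −0.82 for the sperm list. The sperm sums were 0.726 to 3.68 RPKM in *cat-2* RNAi and 2.46 to 4.59 RPKM in EV. The part of these tissues in the values below was not tested.

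*ugt-4* measured 2.84, 2.80, 3.10 and 2.55 RPKM in *cat-2* RNAi, against 3.68, 3.36, 4.52 and 3.22 RPKM in EV. Every *cat-2* RNAi library lay below every EV library, at a log2 fold change of −0.33 (SE 0.119, unadjusted p = 0.0157, adjusted p = 0.506, limma). It thus had a value below EV in both RNAi groups, but the EV libraries are shared by these comparisons. Without EV replicate 3, the highest, its unadjusted p was 0.0620 in *cat-2* RNAi. The share of members with all 4 libraries below EV was 1.96%, against 2.42% of all features, and 0 members had all 4 libraries above EV, against 3.03%.

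*ugt-25*, on chromosome I (4731606 to 4735276), measured 14.3, 16.7, 14.4 and 20.1 RPKM in *cat-2* RNAi, against 11.9, 11.9, 15.2 and 13.5 RPKM in EV. *ugt-1*, on chromosome V (10395663 to 10397820), measured 1.59, 1.04, 1.43 and 1.22 RPKM in *cat-2* RNAi, against 0.453, 0.851, 1.23 and 0.553 RPKM in EV. In both genes the groups overlapped through EV replicate 3, the highest EV library of each. The log2 fold changes were 0.30 (SE 0.133, unadjusted p = 0.0432, limma) for *ugt-25* and 0.55 (SE 0.246, unadjusted p = 0.0427, limma) for *ugt-1*, with an adjusted p of 0.556 for both. Each lost the unadjusted threshold in 10 of the 25 alternatives. For *ugt-25* the p was 0.0520 to 0.156 without *cat-1* RNAi replicate 3, *cat-2* RNAi replicate 2 or 4 or EV replicate 1, 2 or 4, and the fold change was 0.20 without *cat-2* RNAi replicate 4. For *ugt-1* it was 0.0502 to 0.127 without *cat-1* RNAi replicate 2, *cat-2* RNAi replicate 1, 3 or 4 or EV replicate 1, 2 or 4, and voom on the recovered reads gave a fold change of 0.85. The count of 2 higher members was 0 without *cat-2* RNAi replicate 4 or without EV replicate 1, 2 or 4, and 4 without EV replicate 3, which also left 0 lower. It was 1 without *cat-2* RNAi replicate 1, 2 or 3 and without replicate 2 or 3 of *cat-1* RNAi, and 2 members were lower without *cat-2* RNAi replicate 1 or 2 or EV replicate 2. It was also 0 when the 2 libraries of lowest quality weight were left out (chosen after seeing the data). The neighbour of *ugt-1*, *ugt-2*, measured 3.36 ± 0.387 RPKM in *cat-2* RNAi and 3.53 ± 0.4002 RPKM in EV, and *ugt-28*, next to *ugt-25*, had a log2 fold change of −0.23 (unadjusted p = 0.110, limma).

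Set directly against each other, *cat-1* RNAi libraries had 4 *ugt* genes lower than *cat-2* RNAi libraries and 0 higher at an unadjusted p under 0.05. The 4 were *ugt-41*, *ugt-25*, *ugt-22* and *ugt-32*, or 7.84% of the members, against 3.28% of all features lower and 3.16% higher (6.44% in either direction). After adjustment 0 passed, as for all features, and voom on the recovered reads gave 5 lower and 0 after adjustment. The median log2 fold change was −0.07, against 0.00 over all features, and 32 of 51 (62.7%) lay below 0, against 51.5% of all features. Of the 9 intestinal markers, 4 were higher and 0 lower in *cat-1* RNAi than in *cat-2* RNAi at the same threshold. Of 5 tested hypodermal markers 3 were higher and 0 lower. The median log2 fold change was −0.04 for the intestinal list, whose sums overlapped, and 0.24 for the hypodermal list. Of 6 neuronal and 2 tested dopaminergic markers 1 each was lower. The dopaminergic list again includes *cat-2*, tested only through the *cat-2* RNAi libraries. It averaged 0.162 RPKM in *cat-1* RNAi and 1.16 RPKM in *cat-2* RNAi, so this count does not measure those cells.

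*ugt-41* had the smallest p of the family in any comparison. It measured 19.96, 15.86, 17.80 and 15.98 RPKM in *cat-1* RNAi, against 22.4, 28.9, 23.1 and 26.8 RPKM in *cat-2* RNAi. The groups did not overlap, and the log2 fold change was −0.53 (SE 0.119, 95% interval −0.78 to −0.27, unadjusted p = 0.000601, adjusted p = 0.549, limma). The EV mean of 22.1 RPKM lay between the means of 17.4 RPKM in *cat-1* RNAi and 25.3 RPKM in *cat-2* RNAi. It stayed under the unadjusted threshold in all 25 alternatives. It was also the tested member whose reads scattered most between replicates relative to counting error, at a chi-square per degree of freedom of 13.5. The median was 2.85 over the members and 3.41 over all features, where counting error alone gives 1. Relative to the mean level, the SD within groups was 13.6% for *ugt-41*, and the median over the members was also 13.6%. *ugt-32*, described above, also had no overlap with *cat-2* RNAi (2.30, 2.52, 2.15 and 2.16 RPKM), at a log2 fold change of −0.60 (unadjusted p = 0.0191, limma). This became −0.34 (unadjusted p = 0.0539, limma) without *cat-1* RNAi replicate 1, and −0.30 (0.114) without both libraries at the low end of the first principal component. *ugt-41* and *ugt-32*, the 2 without overlap, are 3.92% of the members, against 1.95% of all features.

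*ugt-22* and *ugt-25* overlapped between the RNAi groups. *ugt-22* had a log2 fold change of −0.19 (SE 0.0675, unadjusted p = 0.0160, limma), with *cat-2* RNAi libraries at 48.3, 53.8, 60.6 and 50.7 RPKM, and its p was 0.0602 without *cat-1* RNAi replicate 1 and 0.0583 without *cat-2* RNAi replicate 3, where the fold change was −0.12. With the 2 libraries of lowest quality weight left out the fold change was −0.08 (unadjusted p = 0.207, limma). *ugt-25* measured 14.9, 13.4, 12.2 and 9.90 RPKM in *cat-1* RNAi and had a log2 fold change of −0.36 (SE 0.133, unadjusted p = 0.0165, limma), with p of 0.0639 without *cat-1* RNAi replicate 4 and 0.0645 without *cat-2* RNAi replicate 4. The highest *cat-1* RNAi library of *ugt-25* lay above the 2 lowest of *cat-2* RNAi. Without *cat-1* RNAi replicate 1 the count of lower members was 2, and without *cat-1* RNAi replicate 3 there were 2 higher members.

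Genes around the family are given by counts and by the members that passed an unadjusted p under 0.05. Of 8 genes that make or carry UDP-sugars, 0 were lower or higher at an unadjusted p under 0.05 in either RNAi group against EV. *gale-1*, which encodes UDP-galactose 4-epimerase, measured 73.1 ± 2.00 RPKM in *cat-1* RNAi and 67.2 ± 3.81 RPKM in *cat-2* RNAi (log2 fold change 0.12, unadjusted p = 0.0143, adjusted p = 0.699, limma). Of 12 tested regulators of detoxification genes 1 was lower and 0 were higher in each comparison. That 1 gene is 8.33% of the list, against 2.49% of all features lower in *cat-1* RNAi against EV. Over all features 3.95% were lower in *cat-2* RNAi against EV and 3.28% in *cat-1* RNAi against *cat-2* RNAi. *nhr-86*, a nuclear hormone receptor, measured 34.7 ± 1.60 RPKM in *cat-1* RNAi, against 37.9 ± 2.83 RPKM in EV (log2 fold change −0.13, unadjusted p = 0.0416, limma) and 39.1 ± 1.33 RPKM in *cat-2* RNAi (−0.17, unadjusted p = 0.00849, limma). *nhr-114*, another nuclear hormone receptor, measured 3.26 ± 0.583 RPKM in *cat-2* RNAi, against 5.18 ± 0.868 RPKM in EV (−0.60, unadjusted p = 0.00495, adjusted p = 0.487, limma).

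Other detoxification families are given for comparison by counts at the same unadjusted threshold. In *cat-1* RNAi against EV, 4 of 50 tested cytochrome P450 genes (with the P450 reductase *emb-8*) and 3 of 36 glutathione S-transferase genes were lower and 0 of either were higher, or 8% and 8.33% lower, against 13.7% of the *ugt* genes. Of all features 2.49% were lower and 3.45% higher there. In *cat-2* RNAi against EV, 1 P450 gene (2%) was lower and 5 (10%) were higher, and 4 transferase genes (11.1%) were lower and 2 (5.56%) higher. Of all features 3.95% were lower and 4.89% higher in that comparison. In *cat-1* RNAi against *cat-2* RNAi, 10 P450 genes (20%) were lower and 1 (2%) was higher, while 1 transferase gene (2.78%) was lower and 4 (11.1%) were higher. The shares of all features were 3.28% lower and 3.16% higher. Of 19 ABC exporters, 1 was higher, in *cat-2* RNAi against EV. No gene of these lists passed the adjusted threshold, and the difference between families was not tested.

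**Figure D5:**
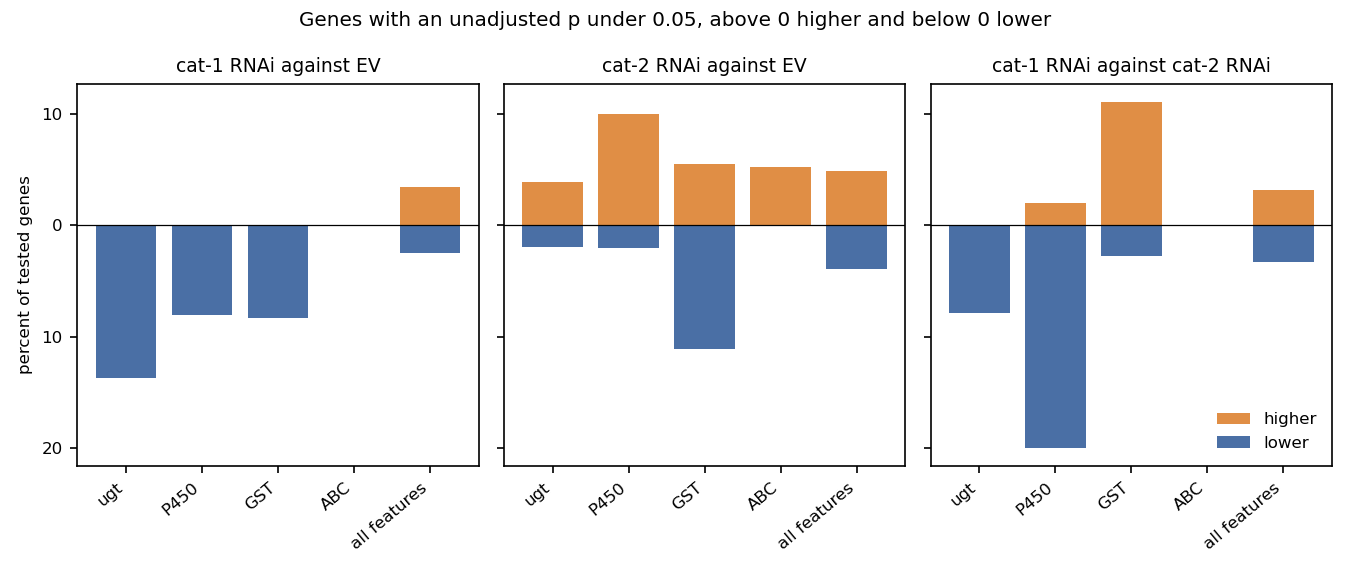
Percent of tested genes with an unadjusted p under 0.05 in 3 comparisons, higher above the 0 line and lower below it, for *ugt* genes (51 tested), P450 genes (50), glutathione S-transferase genes (GST, 36), ABC exporters (19) and all 13161 features. In *cat-1* RNAi against EV 13.7% of the *ugt* genes are lower and 0 higher, against 2.49% and 3.45% of all features.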

How the data were processed

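Poly(A)-selected RNA of 12 libraries in 3 groups had been sequenced as paired reads. The authors mapped reads to ce11 with CLC software and deposited 1 table of RPKM per feature and library, with group means in RPKM and p-values of their own comparisons (the deposited p-value columns were not used). How reads with several matches or on either strand were treated was not given in the sources used here. Reads were recovered by finding, for each feature, the length that gives whole reads in every library (tolerance 0.0001 reads). At least 99.22% of each library's mapped reads were recovered.

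Features with at least 0.5 RPKM in at least 4 libraries (13161) were tested on log2(RPKM + 0.5) with limma 3.58.1 (R 4.3.3; trend and robust estimation, all 12 libraries in 1 model) and Benjamini-Hochberg adjustment within each comparison. The pseudocount makes fold changes of low genes smaller. The fit was tested on simulated data. Positions come from an annotation of the same build. Named *ugt* genes are those with an unadjusted p under 0.05 in any comparison, the 10 highest, the 3 lowest tested and the neighbours of the first. *ugt-33*, *ugt-15*, *ugt-34* and *ugt-35*, which this does not cover, are named with their values already known. Members and lists were chosen with earlier results of these data known. Tables used Python 3.11.15 and pandas 2.3.3. The fits were repeated under 23 other settings, and under 2 more chosen after seeing the data. In the main fit, p-values set a difference between groups against the spread between these libraries, estimated over the 3 groups with information from all tested features.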

Additional observations from a re-analysis of the deposited data

Results flagged for a closer look

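In 5 of 81 groups of 4 libraries looked at (the named *ugt* genes and the summed level of the family, in each group), 1 library stood apart, by the gap to its nearest neighbour relative to the group's range (Dixon's test). Chance alone marks about 1 in 20 such groups. *ugt-44* was lowest in *cat-1* RNAi replicate 3 at 35.3 RPKM, with the other 3 at 42.6 to 43.6 RPKM. *ugt-64* was lowest in *cat-1* RNAi replicate 1 at 30.0 RPKM (others 31.9 to 32.2 RPKM). *ugt-30* was highest in *cat-1* RNAi replicate 2 at 1.06 RPKM (others 0.387 to 0.404 RPKM). *ugt-36* was highest in *cat-1* RNAi replicate 1 at 0.293 RPKM (others 0.0581 to 0.0947 RPKM), from 9 reads. *ugt-6* was lowest in EV replicate 1 at 3.86 RPKM (others 5.25 to 5.38 RPKM).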

How the results depend on the processing

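No *ugt* gene passed an adjusted p of 0.05 in any comparison under any of the 25 alternatives, and none of the 14 *ugt* fold changes with an unadjusted p under 0.05 changed sign in the comparison where it had that p. Genes outside the family were not followed through the alternatives. In *cat-1* RNAi against EV, the count of lower members was 7, with 4 to 7 over the settings that leave out 1 library. It was 4 without both libraries at the low end of the first principal component. A model of only the 2 groups compared gave 5, with an unadjusted limma p of 0.0619 for *ugt-4* and 0.0577 for *ugt-11*. The median log2 fold change was −0.0785 to −0.0366 with 1 library left out. In *cat-2* RNAi against EV, quantile normalization, limma without trend or robust estimation, and leaving out the 2 libraries at the low end of the first principal component each gave 2 lower and 1 higher, library quality weights gave 2 lower and 3 higher, and leaving out the 2 libraries of lowest quality weight gave 3 lower and 0 higher. With 1 library left out, 0 to 2 members were lower and 0 to 4 higher. The median was −0.0035 with no filter on low values, where 64 members were tested. In *cat-1* RNAi against *cat-2* RNAi, 2 to 5 were lower and 0 to 2 higher with 1 library left out. The cause of these shifts was not tested. Deviations from the group means correlated at −0.058 to 0.185 over 12 pairs of same-numbered libraries (median 0.0215, 1 over 0.1). Over the 36 other pairs between groups the correlations were −0.239 to 0.177 (median −0.006). Of the 12 libraries, 4 correlated best with their own number. These weak correlations did not show a pairing by replicate number, but cannot exclude that samples were prepared in sets. With the replicate number as a block, 0 members were higher in *cat-2* RNAi than in EV, against 2 without it, and the other counts were the same. Members under about 1 RPKM rest on few reads, with a median SE of 0.218 on the log2 scale, against 0.0832 for those over 10 RPKM.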
